A study of Mus musculus with 32 samples.

Results

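The miR-146a-5p mimic was compared with a scramble mimic in unstimulated BV-2 cells, a mouse microglial line kept in permanent culture, by RNA sequencing of total RNA after removal of ribosomal RNA. The members are the 8 of the 32 libraries whose labels give vehicle and either of these mimics: 4 libraries named VEH_miR-146a and 4 named VEH_scramble, with replicates numbered 1 to 4 in each. VEH_miR-146a cells were transfected with a double-stranded mimic of the mature microRNA and VEH_scramble cells with a mimic of no intended target, and both received vehicle in place of lipopolysaccharide (LPS). The remaining libraries hold miR-29a and miR-7a mimics under vehicle and all 4 mimics under LPS. The methods describe the replicates as independent experiments on this cell line. The labels and the methods differ on whether transfection or the LPS or vehicle treatment came first.

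MicroRNA-146a is known as a brake on innate immune signalling. In macrophages and microglia its transcription is switched on by NF-kB, the transcription factor downstream of Toll-like receptors. Its best known targets are Irak1 and Traf6, the kinase and the ubiquitin ligase that carry the receptor signal towards NF-kB. A microRNA loaded on an Argonaute protein pairs through its seed, bases 2 to 8, with sites in the 3′ untranslated region (3′ UTR) of messenger RNAs, which lowers their stability and translation.

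The mature microRNA and its sites in Irak1 and Traf6 are shown because these are the transcripts the mimic is best known to bind. The mature sequence comes from RefSeq on build GRCm38.p6 (chr11:43374435-43374456, minus strand), with the seed in capitals. Sites were read from the 3′ UTR of a single coding GENCODE vM21 transcript per gene on build GRCm38. Each is given as the 22 bases that end opposite base 1 of the microRNA. Capitals mark the match to the seed, which is AGTTCTCA for an 8mer, AGTTCTC for a 7mer-m8 and GTTCTCA for a 7mer-A1.
miR-146a-5p: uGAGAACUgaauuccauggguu
Irak1 8mer, chrX:74015393-74015414, minus strand: gactcagaggtcaaAGTTCTCA
Irak1 8mer, chrX:74015377-74015398, minus strand: ttctcatgcttggaAGTTCTCA
Irak1 7mer-A1, chrX:74015287-74015308, minus strand: gcagtggaccctgctGTTCTCA
Traf6 8mer, chr2:101697945-101697966, plus strand: ccgctctggtgttgAGTTCTCA
Traf6 8mer, chr2:101698009-101698030, plus strand: ccctggaaggcttaAGTTCTCA
Traf6 8mer, chr2:101698821-101698842, plus strand: gtactttggagtctAGTTCTCA
Traf6 8mer, chr2:101701345-101701366, plus strand: gactttgctactgcAGTTCTCA

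The mature microRNA is too short for these libraries, so the transfection itself was not checked by its level. Myeloid genes were abundant in all 8 libraries: Csf1r, the receptor for the growth factor of macrophages, lay at 757 to 1051 CPM (estimated counts scaled to a common library size) and Spi1, a myeloid transcription factor, at 113 to 240 CPM. Genes of homeostatic microglia in tissue were near the lowest detectable level, with Tmem119 at 0.416 to 3.73 CPM and Cx3cr1 at 0 to 1.44 CPM. The labels call the cells glioblastoma. Of 16 listed astrocyte and glioma genes 3, Gfap, Aqp4 and Aldh1l1, were at 0 counts in all 8 libraries. The others were detected in at least 1 library, and 1 passed the filter on low counts. Values are estimated read counts whose decimal marks, lost in the deposited table, were restored by a model, and library totals ran from 1664764 to 9569630 counts. VEH_miR-146a replicate 1 was the shallowest, and a floor of 3 counts stood for 0.317 to 1.86 CPM. Small structural RNA genes took 5.09% ± 1.53 of the counts in VEH_miR-146a and 9.95% ± 2.31 in VEH_scramble (SD, n = 4 each, two-sided exact permutation p = 0.0571). Gm26917, a noncoding gene that resembles ribosomal RNA, held 6.49% of the counts of VEH_scramble replicate 2 and 0.521% of those of VEH_miR-146a replicate 2, and at most 0.243% elsewhere among the 8.

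Of 11648 genes tested, 258 were called, meaning a limma voom adjusted p under 0.05 over all genes tested. This is 2.21% of the genes, 145 of them higher with the mimic (1.24%) and 113 lower (0.97%). The genes that fell moved further, by a median log2 fold change of -1.18 (2.27-fold), than the genes that rose, by a median of 0.90 (1.86-fold), while the median over all genes tested was 0.01. Replication-dependent histone genes, named the Hist family below, made up 30 of the 113 genes that fell. The groups did not overlap in 143 of the genes that rose and in 106 of those that fell, against 15.4% of all genes tested (8.59% in the upward and 6.79% in the downward direction). An unadjusted p under 0.05 was found for 2948 genes, or 25.3%. The count depended on single libraries: it was 0 without VEH_miR-146a replicate 3, with 2336 genes at an unadjusted p under 0.05, and 1245 without VEH_scramble replicate 1. Without any other single library it was 13 to 71, and the counts for the gene lists below moved with it.

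Among called protein-coding genes outside the Hist family, Ms4a14, a membrane protein gene of the Ms4a family (chromosome 19, 11301249 to 11314454, minus strand), rose most. It lay at 21.7, 23.8, 23.4 and 13.2 CPM in the miR-146a libraries 1 to 4 and at 12.96, 5.49, 5.17 and 4.66 CPM in the scramble libraries, a log2 fold change of 1.58 ± 0.34 (SE, limma adjusted p = 0.0400). The lowest miR-146a library thus barely cleared the highest scramble library. Qk, an RNA-binding protein that controls splicing and transcript stability (chromosome 17, 10202601 to 10319854, minus strand), lay at 726, 682, 535 and 495 CPM with miR-146a and at 369, 201, 237 and 277 CPM with scramble. Its log2 fold change was 1.19 ± 0.21 (SE, limma adjusted p = 0.0225), and the groups stood clearly apart. Gcc2, a coiled-coil protein of the trans-Golgi network (chromosome 10, 58255497 to 58305599, plus strand), lay at 99.96, 81.8, 76.1 and 67.4 CPM against 54.4, 24.6, 27.1 and 32.8 CPM, with a log2 fold change of 1.22 ± 0.23 (SE, limma adjusted p = 0.0289). Scramble replicate 1 was the control closest to the mimic libraries for both Qk and Gcc2. The other large rises, with log2 fold changes of 1.18 to 1.33, were those of Gm10521, Zfp935, 2810474O19Rik, the nuclear receptor Rora, the single-strand DNA-binding protein Nabp1, Gm13157, Lcorl, the non-muscle myosin Myh10 and the kinase Rock1, which regulates actomyosin contraction. Zfp935 and Gm13157 belong to families with near-identical copies and are uncertain, and Zfp935, Rora and Lcorl overlap genes on the opposite strand, whose reads may be counted with theirs since the strand setting of the counting is not given in the sources used here.

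Among called protein-coding genes outside the Hist family, Poc1a, a centriole protein, had the largest fall, with a log2 fold change of -1.66 ± 0.34 (SE, limma adjusted p = 0.0348). It rests on only 7 to 43 counts in the miR-146a libraries. Ccl9, a chemokine of macrophages, rests on even fewer. It had 1, 11, 21 and 13 counts with miR-146a against 30, 15, 29 and 53 with scramble, a log2 fold change of -1.61 ± 0.37 (SE, limma adjusted p = 0.0452). H2afx, the histone variant that is phosphorylated at DNA breaks (chromosome 9, 44334694 to 44336077, plus strand), lay at 50.1, 39.4, 44.4 and 53.3 CPM with miR-146a and at 86.9, 161, 140 and 154 CPM with scramble. Its log2 fold change was -1.51 ± 0.21 (SE, limma adjusted p = 0.00931), and every miR-146a library lay far below every scramble library. Mybl2, a transcription factor of cell cycle genes (chromosome 2, 163054687 to 163084688, plus strand), lay at 28.6, 22.7, 26.8 and 31.3 CPM against 62.3, 81.8, 48.7 and 58.6 CPM, with a log2 fold change of -1.18 ± 0.19 (SE, limma adjusted p = 0.0198). Its groups also stood well apart. The other large falls, from -1.60 to -1.18 on the log2 scale, included those of Them6, the survivin gene Birc5, the adaptor Traf4, Sapcd2, the mitochondrial ribosomal protein gene Mrpl30, Uqcc2, which serves assembly of respiratory complex III, and Fam212a. Poc1a, Them6, H2afx and Fam212a overlap genes on the opposite strand.

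**Figure D1:**
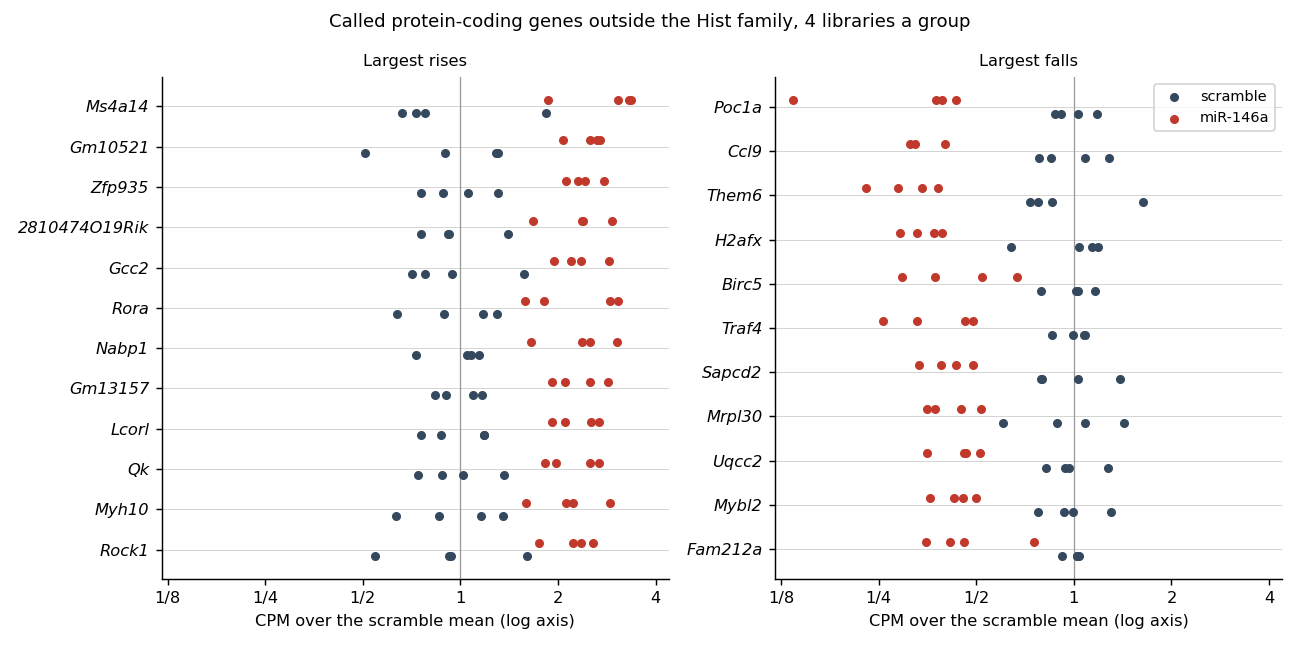
CPM of protein-coding genes outside the Hist family among those with the largest rises (left, 12 genes) and falls (right, 11 genes), each divided by the mean of the 4 scramble libraries, on a log axis. Every point is 1 library. Red miR-146a points lie to the right of dark scramble points for the rises and to the left for the falls, with Ms4a14 (13.2 against 12.96 CPM) the closest approach among the rises.

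Replication-dependent histone genes, which are transcribed in S phase to package new DNA and mostly lack a poly(A) tail, had the largest median change of the gene lists examined as fitted. Together they took 0.344%, 0.375%, 0.283% and 0.344% of all counts in the miR-146a libraries and 0.653%, 0.803%, 0.837% and 1.03% in the scramble libraries. The highest miR-146a library lay below the lowest scramble library. The means were 0.337% ± 0.0385 and 0.831% ± 0.155 (SD, n = 4 each), a ratio of 2.47, with a two-sided exact permutation p of 0.0286, the smallest that 4 against 4 libraries allow. This share does not depend on how reads were split among near-identical copies. Of 71 listed genes 41 were tested, of which 30 fell and 0 rose, where 0.97% of all genes fell. No listed histone gene rose by limma-trend or at an unadjusted p under 0.05 either, while 40 were lower at that limit. The median log2 fold change was -1.58, and it stayed between -1.81 and -1.45 when any library was left out, although the number called then ran from 0 without VEH_miR-146a replicate 3 to 37 without VEH_scramble replicate 1. Once the GC and length trends described below were taken out of every library, the median was -0.85 over 39 genes, 7 of which were called lower. With the replicate number as a block in that fit 22 were, where 1.53% of all genes were.

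Single histone genes varied in size of change. Hist2h2aa1, an H2A gene, lay at 145, 176, 122 and 126 CPM with miR-146a and at 264, 491, 485 and 550 CPM with scramble (log2 fold change -1.62 ± 0.23 SE, limma adjusted p = 0.00931, and -0.82 with an adjusted p of 0.0667 by limma-trend after trend removal). Hist1h4n, an H4 gene, had a log2 fold change of -1.38 ± 0.25 (SE, limma adjusted p = 0.0238), which became -0.55 after trend removal (limma-trend adjusted p = 0.219). The linker histone gene Hist1h1c, the most abundant, lay at 285 to 393 CPM against 337 to 568 CPM, so its groups overlapped, and it was not called (log2 fold change -0.48, limma adjusted p = 0.134). Hist1h1e was also not called, at -0.82 (limma adjusted p = 0.0753, and 0.0328 with the replicate number as a block), while Hist1h1d was, at -1.10 (limma adjusted p = 0.0225) and at -1.72 after trend removal (limma-trend adjusted p = 0.0125). No test compared core with linker histones. Each of these genes has near-identical copies, and its own value is uncertain. In the same libraries the share of structural RNA genes was lower as well, at 3.89% to 7.33% against 6.80% to 12.3%, and its part in the histone share was not tested.

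**Figure D2:**
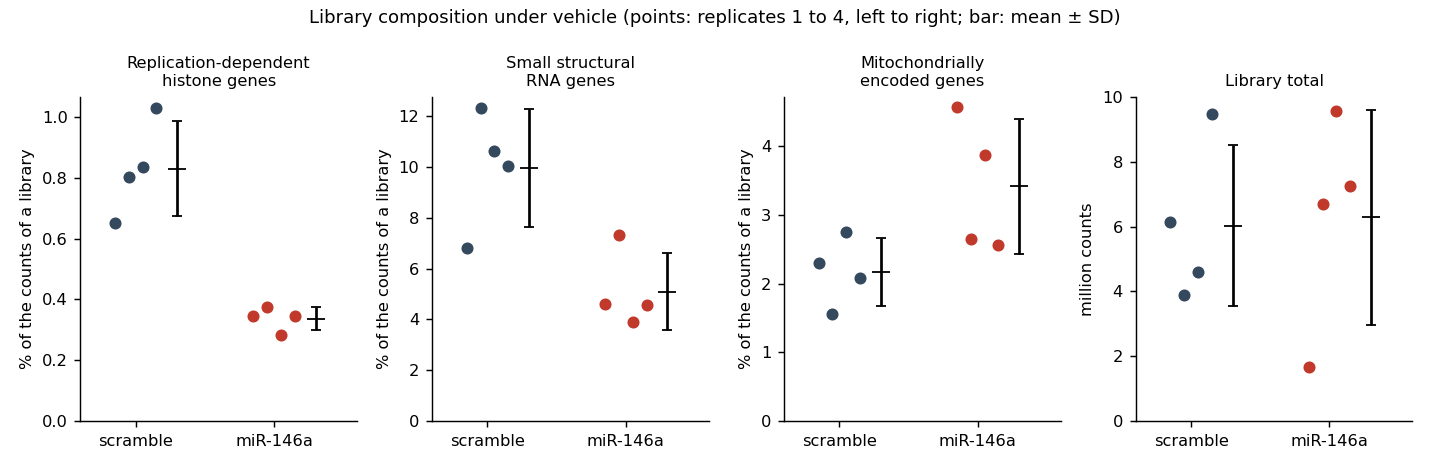
Share of each vehicle library's counts in histone genes, small structural RNA genes and mitochondrially encoded genes, in percent, and library totals; points are replicates 1 to 4 and bars the mean ± SD. Only the histone shares separate without overlap, at most 0.375% with miR-146a and at least 0.653% with scramble.

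Genes of DNA replication and S phase were mostly lower with the mimic, few of them past the threshold. Of 52 listed and tested, 3 fell and 0 rose, where 0.97% of all genes fell, and the median log2 fold change was -0.53. At an unadjusted p under 0.05, which 25.3% of all genes passed in either direction, 31 were lower and 1 was higher. The number called lower was 7 without VEH_scramble replicate 1, 1 without VEH_miR-146a replicate 2 and 0 without any other single library, while the median stayed between -0.61 and -0.46. Once the GC and length trends described below were removed, 1 was called lower, with a median of -0.46. Mcm6, a subunit of the replicative helicase (chromosome 1, 128331590 to 128359664, minus strand), lay at 99.3, 66.2, 87.4 and 91.2 CPM with miR-146a and at 143, 169, 141 and 152 CPM with scramble, without overlap. Its log2 fold change was -0.84 ± 0.16 (SE, limma adjusted p = 0.0289). Its partner subunit Mcm5 fell by 0.93 and the clamp loader subunit Rfc5, which overlaps Wsb2 on the opposite strand, by 0.75 on the log2 scale. The thymidine kinase Tk1 was not called, at -0.86 on the log2 scale (limma adjusted p = 0.0549, and 0.0459 with the replicate number as a block).

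Of 41 tested genes of mitosis and the spindle, 6 fell and 0 rose, where 0.97% of all genes fell, with a median log2 fold change of -0.34. Without VEH_scramble replicate 1, 9 fell and 1 rose, and without any other single library 0 to 2 fell. Once the GC and length trends were removed, 1 mitotic gene was called lower, with a median of -0.40. The 6 that fell as fitted were Ncapd2, Birc5, Cdc20, Plk1, Ube2c and Aurkb, with log2 fold changes of -1.18, -1.27, -1.06, -0.90, -0.83 and -0.74. Ncapd2, a condensin subunit (chromosome 6, 125168007 to 125191701, minus strand), lay at 105, 127, 78.1 and 108 CPM against 173, 301, 217 and 258 CPM, but it shares its strand and position with the small RNA gene Scarna10. Plk1, the polo-like kinase of mitotic entry, lay at 14.1 to 20.5 CPM against 26.4 to 39.9 CPM, and Aurkb, a kinase of the chromosomal passenger complex, at 15.5 to 16.6 CPM against 25.5 to 29.1 CPM, both without overlap. Cdc20 and Ube2c, which serve the ubiquitin ligase that ends mitosis, overlap Elovl1 and Tnnc2 on the opposite strand. In bulk RNA, fewer cycling cells and less of these transcripts per cell cannot be told apart.

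The genes that rose were long and AT-rich, and those that fell short and GC-rich. The median transcript of the 145 genes that rose had a GC content of 41.5% and a length of 5971 bases, against 55.0% and 1511 bases for the 113 that fell and 49.3% and 3255 bases for all genes tested. A GC content under 45% was found in 119 of the genes that rose, and one of 52% or more in 77 of those that fell. In the eighth of genes with the lowest GC content the median log2 fold change was 0.52, with 73 genes called higher and 2 lower. In the eighth with the highest it was -0.27, with 1 higher and 40 lower. The shortest eighth of transcripts had a median of -0.43, with 0 higher and 52 lower, and the longest a median of 0.29, with 67 higher and 1 lower. Across 11602 genes of these same 8 libraries the Spearman correlation of the log2 fold change was -0.549 with GC content and 0.419 with length.

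These trends differed between libraries of a group. The slope of log2 CPM per 10 percentage points of GC content was -0.284, -0.241, -0.228 and -0.0117 in the miR-146a libraries and -0.0483, 0.564, 0.115 and 0.134 in the scramble libraries. MiR-146a replicate 4 was nearly flat, and scramble replicate 2 was by far the steepest. The groups overlapped, and the difference of -0.383 was not beyond what the libraries' spread allows (two-sided exact permutation p = 0.0571). Within same-numbered pairs the GC slope was lower with miR-146a in 4 of 4 (exact p = 0.125, the smallest that 4 pairs allow). The slope per doubling of transcript length was 0.0808, 0.0867, 0.0612 and 0.0936 with miR-146a and 0.00263, 0.0374, -0.239 and -0.123 with scramble. Here the groups did not overlap, with a difference of 0.161 (two-sided exact permutation p = 0.0286, the smallest possible). With protein-coding genes alone the difference was 0.145 and not significant (exact permutation p = 0.2).

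**Figure D3:**
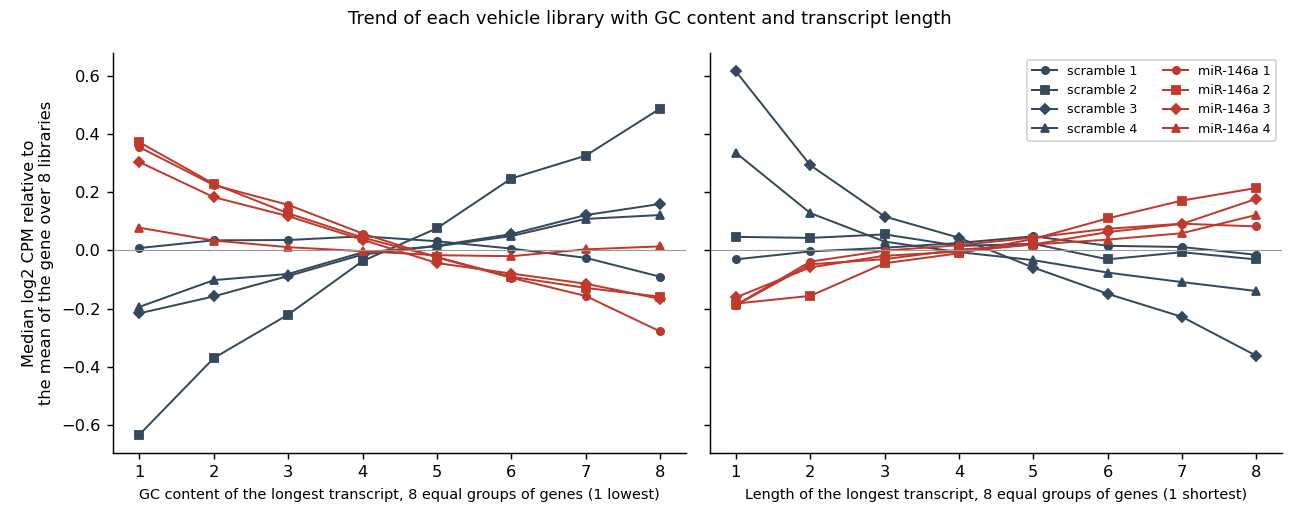
Median log2 CPM of each vehicle library relative to the gene's mean over the 8 libraries (vertical axis), in 8 equal groups of genes ordered by GC content (left) or length (right) of the longest transcript. The miR-146a lines fall with GC content, replicate 4 least, while scramble replicate 2 rises from -0.63 to 0.49 and scramble replicate 3 falls with length from 0.61 to -0.36.

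After each library's own trend with GC content and length was removed, 17 of 11602 genes were called (0.147%), 15 lower (0.129%) and 2 higher (0.0172%), against 350 of 11648 (3%) by the same limma-trend fit before removal. With the replicate number as a block besides, 380 were called (3.28%), 202 higher (1.74%) and 178 lower (1.53%), among them 50 of the genes that had risen and 58 of those that had fallen. The replicates carry matching numbers, and same-numbered libraries deviated together at correlations above 0.1 in 3 of 4 vehicle pairs. Values with the block are therefore given for most genes named here whose call it changes and, for most lists, further on. The median log2 fold change of the genes that had risen went from 0.90 to 0.45 and that of the genes that had fallen from -1.14 to -0.71. Their sign stayed the same in 142 of 144 and in 111 of 112 genes. Of the 17, 15 were also called before removal, and 7 of these are histone genes: Hist1h1d, Hist1h2ab, Hist1h2ac, Hist1h2bk, Hist1h2br, Hist1h4d and Hist4h4. The other 7 that fell were the histone variant gene H2afx, which is outside the Hist family, Mybl2, Mcm6, Ncapd2, Racgap1, Fancd2 and Mrpl30. Racgap1, which serves cytokinesis, lay at 33.5 to 38.5 CPM against 58.6 to 79.5 CPM, and Fancd2, a DNA crosslink repair protein whose gene overlaps Fancd2os, at 11.2 to 16.5 CPM against 20.7 to 29.5 CPM. The groups overlapped in neither.

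Klf2, a transcription factor that restrains activation of myeloid cells (chromosome 8, 72319033 to 72321656, plus strand), was the gene called higher both before and after removal. It lay at 30.4, 19.1, 32.8 and 28.97 CPM with miR-146a and at 12.6, 13.3, 18.2 and 9.44 CPM with scramble. Its groups did not overlap, though replicate 2 of the mimic came close to replicate 3 of the control. The log2 fold change was 1.11 ± 0.25 (SE, limma adjusted p = 0.0463) before removal and 1.48 after it (limma-trend adjusted p = 0.0374). It was 1 of 23 tested immediate-early genes, of which no other was called. Akap6 and Tubb2a were called only after removal, at -1.03 and 0.70 on the log2 scale, and are named after their values were seen.

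Some gene lists had medians above 0 as fitted that became smaller after removal of the trends, though few of their members passed the test. Of 40 long coiled-coil proteins of the Golgi and centrosome, 6 rose and 0 fell, where 1.24% of all genes rose, with a median log2 fold change of 0.52 that became 0.23 after removal. The 6 were Gcc2, Rock1, Ccdc88a, Eea1, Smc5 and Rock2, at 0.94 to 1.22. Of 28 genes of microRNA processing and silencing 3 rose and 0 fell, with a median of 0.33 as fitted and 0.11 after removal. Ago3, an Argonaute protein, lay at 152, 169, 197 and 189 CPM with miR-146a and at 90.5, 89.7, 93.2 and 114 CPM with scramble (log2 fold change 0.87 ± 0.15 SE, limma adjusted p = 0.0225). Zcchc6 and Zcchc11, the uridyl transferases that tag small RNA precursors, rose by log2 fold changes of 0.90 and 0.76 and overlap genes on the opposite strand. Of 279 Zfp zinc finger genes 7 rose and 1 fell, where 1.24% and 0.97% of all genes did, with a median of 0.19 as fitted and 0.04 after removal, and Zfp593 fell, by 1.01 on the log2 scale. Without VEH_scramble replicate 1 the numbers that rose were 18, 5 and 25 in the 3 lists, without VEH_miR-146a replicate 4 they were 2, 0 and 1, and without any other single library they were 0. Their medians were lowest without VEH_scramble replicate 3, at 0.35, 0.25 and 0.13. None of the coiled-coil, microRNA processing or Zfp genes named here was called by limma-trend once the trends were removed. With the replicate block added to that fit, 4 coiled-coil genes and 1 microRNA processing gene were called higher, where 1.74% of all genes were, and 1 Zfp gene lower.

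Among 11 nuclear long noncoding RNAs 1 rose and 2 fell, where 1.24% and 0.97% of all genes did. Malat1, an abundant RNA of nuclear speckles (chromosome 19, 5795690 to 5802672, minus strand), lay at 22000, 30144, 27091 and 31068 CPM with miR-146a and at 13173, 12032, 10172 and 15973 CPM with scramble, without overlap (log2 fold change 1.11 ± 0.19 SE, limma adjusted p = 0.0225). After removal of the trends its log2 fold change was 0.66 (limma-trend adjusted p = 0.2). Rmrp, the RNA of RNase MRP, fell by 1.54 on the log2 scale, but scramble replicate 1, at 2971 CPM, lay below miR-146a replicate 2, at 3403 CPM. After removal of the trends Rmrp was at -0.41 on the log2 scale (limma-trend adjusted p = 0.297). Snhg3, which hosts small nucleolar RNAs, fell by 1.44, and its value after removal was -1.30 (limma-trend adjusted p = 0.131). The 13 mitochondrially encoded genes tested had a median log2 fold change of 1.14, but 0 were called by limma voom or limma-trend, with 7 at an unadjusted p under 0.05. A block on the replicate number gave 7 called higher, where 4.91% of all genes were, and with the block and the trends removed 8 were called higher and 1 lower. The apocytochrome b gene mt-Cytb, for example, was at 1.69 on the log2 scale (limma adjusted p = 0.0528 without and 0.00394 with the block). Without VEH_miR-146a replicate 1 the median was 0.70, without VEH_scramble replicate 2 it was 0.74, and without VEH_scramble replicate 1 it was 0.75, with 6 genes called higher and 1 lower. Their share of counts was 3.41% ± 0.979 against 2.17% ± 0.495 (SD, n = 4 each, two-sided exact permutation p = 0.0857).

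The reported targets of miR-146a were examined to ask whether the mimic lowered the transcripts it is known to bind. Of 23 listed genes 18 were tested, of which 2 rose, where 1.24% of all genes did, and 3 rose by limma-trend. By either fit 0 fell, with 3 lower and 5 higher at an unadjusted p under 0.05. The kinase Irak1 (chromosome X, 74013914 to 74023918, minus strand), with the 3 sites shown above, lay at 95.0, 101, 89.2 and 97.9 CPM with miR-146a and at 131, 160, 114 and 122 CPM with scramble. Every miR-146a library was below every scramble library, yet the log2 fold change of -0.45 ± 0.15 (SE) did not pass (limma adjusted p = 0.0995). Non-overlap alone is not rare here, since it held in the lower direction for 6.79% of all genes. Traf6 (chromosome 2, 101678429 to 101701669, plus strand), with 4 8mers, lay at 49.7, 46.0, 47.0 and 53.9 CPM against 65.1, 55.5, 52.2 and 59.0 CPM. The groups overlapped slightly, and its log2 fold change was -0.24 ± 0.15 (SE, limma adjusted p = 0.328). After removal of the GC and length trends it was -0.50 (limma-trend adjusted p = 0.105), while that of Irak1 was -0.33 (limma-trend adjusted p = 0.198). With the replicate block added to that fit Traf6 was called lower (limma-trend adjusted p = 0.0404) and Irak1 was not (limma-trend adjusted p = 0.0697). With the block alone neither was (limma adjusted p = 0.354 for Traf6 and 0.0709 for Irak1). Of the 18 targets, 2 were called higher and 1 lower with block and trend removal, where 1.74% and 1.53% of all genes were. With the block alone 3 were higher and 0 lower, where 4.91% and 3.13% of all genes were.

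Reported targets were divided by whether the 3′ UTR read for them holds a 7mer or 8mer site. This was the 3′ UTR of a single coding transcript per gene, the best ranked in the annotation, and sites in other transcripts were not counted. The 8 with a site had a median log2 fold change of -0.29, and 6 were below 0, while the 10 without had a median of 0.15, and 4 were below 0. After removal of the trends the medians were -0.33 and -0.03. These medians were not tested. Irak2, a kinase related to Irak1 with 3 sites, was at -0.48 on the log2 scale (limma adjusted p = 0.15), the receptor Notch1 at -0.43 (limma adjusted p = 0.388) and the signal transducer Smad4 at -0.33 (limma adjusted p = 0.316). Hnrnpd, an RNA-binding protein with 2 sites, went the other way, at 0.48 (limma adjusted p = 0.164, higher in 4 of 4 same-numbered pairs), and was at 0.02 after removal of the trends. Rock1 passed the test as higher (log2 fold change 1.18) and holds no such site in this transcript. Tlr4, the LPS receptor, had a log2 fold change of 0.71 without overlap and just missed the threshold (limma adjusted p = 0.0531), which it passed with the replicate block (limma adjusted p = 0.0302). After removal of the trends the values of Rock1 and Tlr4 were 0.66 and 0.21.

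**Figure D4:**
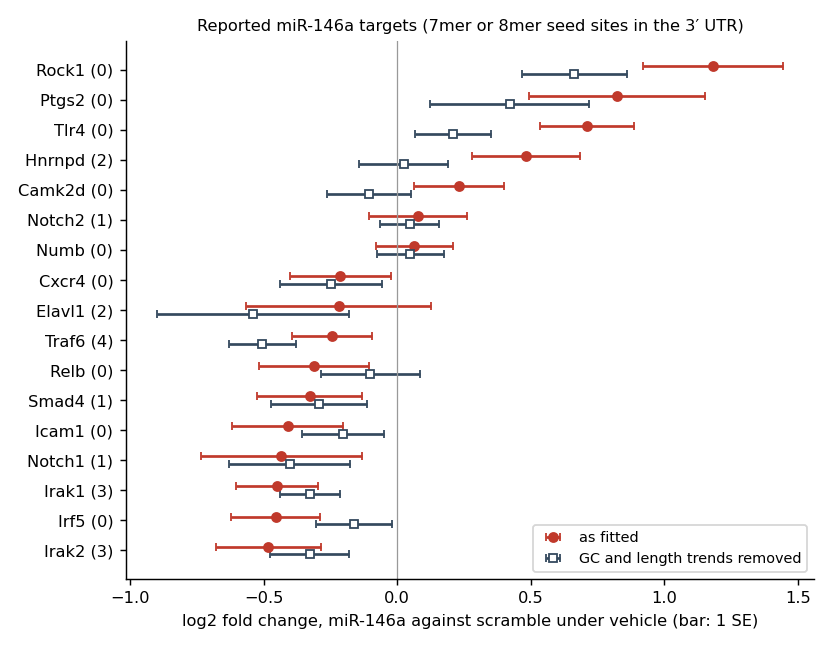
Log2 fold change of 17 of the 18 tested reported targets, miR-146a against scramble under vehicle, with bars of 1 SE, as fitted (red circles) and with GC and length trends removed (open squares); the number of 7mer or 8mer sites is in parentheses. Rock1, with 0 sites, lies highest at 1.18, and removal of the trends brings it to 0.66 while Traf6 moves from -0.24 to -0.50.

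Across the transcriptome, 417 tested genes held an 8mer in the 3′ UTR and 7055 held no site of 6 bases or more. As fitted, the median log2 fold change was 0.12 for genes with an 8mer and -0.04 for those without a site. Genes with an 8mer have longer 3′ UTRs, at a median of 2617 against 703 bases. After removal of the trends the medians were -0.06 and 0.02, so the order turned with the correction. Of genes with an 8mer, 1.2% were called lower as fitted, against 1.02% of those without a site. The share was 0.917% where the strongest site was a 7mer-m8 and 0.13% where it was a 7mer-A1. Genes were also split by 3′ UTR length, at up to 591 bases, 592 to 1664 bases and longer. In this order 0%, 4.35% and 0.33% of 22, 92 and 303 genes with an 8mer were called lower. Without a site the shares were 1.79%, 0.475% and 0.287%. The medians as fitted were -0.09, -0.15 and 0.18 with an 8mer and -0.20, 0.03 and 0.21 without a site. These classes were not tested. Of the 1951 genes with any 7mer or 8mer, 13 were called lower (0.666%) and 29 higher. Per library, the median of 8mer genes less that of genes without a site, after removal, was -0.0287, -0.0443, -0.0303 and -0.0522 with miR-146a and 0.0262, 0.0448, 0.0575 and 0.0324 with scramble. The mimic libraries were thus all below the scramble libraries, an order that was not tested.

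Called genes that fell and hold a 7mer or 8mer included Ccl9, Them6, Hist3h2a, Hist4h4 and Mrpl30, among the 6 with the largest falls. Their strongest sites are shown for Mrpl30 and Hist4h4, which also passed after removal of the trends.
Mrpl30 7mer-m8, chr1:37898362-37898383, plus strand: ctatcacttcgttcAGTTCTCt
Mrpl30 7mer-A1, chr1:37898293-37898314, plus strand: cttactaaggaaaccGTTCTCA
Hist4h4 8mer, chr6:136803956-136803977, minus strand: ctgtggacatttgtAGTTCTCA
Mrpl30 lay at 47.2, 54.2, 36.9 and 39.2 CPM with miR-146a and at 93.1, 63.3, 150 and 113 CPM with scramble (log2 fold change -1.21 ± 0.25 SE, limma adjusted p = 0.0343). Hist4h4, an H4 gene outside the large clusters, lay at 20.5, 27.3, 18.5 and 21.3 CPM against 39.05, 76.1, 48.0 and 59.0 CPM (log2 fold change -1.29 ± 0.23 SE, limma adjusted p = 0.0225). The groups were separate in both. A match of these letters is a description and not a shown binding site, and histone genes without a site fell too.

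The counts for genes of inflammatory signalling stand beside 2.21% of all genes called and 25.3% at an unadjusted p under 0.05. Of 37 genes from Toll-like receptors to NF-kB 0 were called by limma voom and 1 by limma-trend, with 9 at an unadjusted p under 0.05 and a median log2 fold change of 0.05. Of 15 tested cytokines and chemokines Ccl6 rose and Ccl9 fell. Ccl6 lay at 57.7, 62.4, 54.8 and 68.6 CPM with miR-146a and at 41.6, 26.6, 25.4 and 30.9 CPM with scramble (log2 fold change 0.97 ± 0.19 SE, limma adjusted p = 0.0289). Spp1, the osteopontin gene, was the most abundant of those named, at 5026 to 5515 CPM against 2765 to 4709 CPM, without overlap, and was not called (log2 fold change 0.39, limma adjusted p = 0.217). Of 20 interferon-stimulated genes 0 were called by limma voom and 1 by limma-trend, with 5 at an unadjusted p under 0.05 and a median of 0.00. Ifit2 had the smallest p of these, at 1.06 on the log2 scale (limma adjusted p = 0.0547, and 0.0407 with the block). Of 15 genes that sense double-stranded or other foreign RNA 0 were called by either fit, with 7 at an unadjusted p under 0.05 and a median of 0.16.

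Cell identity and phagocytosis genes were not called without the block, where 2.21% of all genes were and 25.3% had an unadjusted p under 0.05. At that rate, 0 calls in lists this short say little about their genes. Of 30 microglial genes 23 were tested, with 0 called by limma voom or limma-trend, 7 at an unadjusted p under 0.05 and a median of 0.22. Trem2, the phagocytic receptor, lay at 252 to 327 CPM against 288 to 440 CPM (log2 fold change -0.46, limma adjusted p = 0.128). C1qc, a complement subunit, was at 0.88 on the log2 scale (limma adjusted p = 0.103, and 0.0328 with the block), and the phosphatase Ptprc at 0.64 (limma adjusted p = 0.0561, and 0.0330 with the block). Of 28 phagosome and lysosome genes taken from the study, a list that is not independent of these samples, 0 were called by either fit, 4 were at an unadjusted p under 0.05 and the median was 0.07. Only 1 astrocyte, 1 neuron, 3 oligodendrocyte and 2 endothelial or fibroblast genes passed the filter on low counts, and 0 were called by either fit, with 0, 0, 1 and 1 at an unadjusted p under 0.05. The summed level of the astrocyte list was 92.5 to 160 CPM with miR-146a and 108 to 201 CPM with scramble, nearly all of it Aldoc, which other cells also express.

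In other pathways single genes were called, where 2.21% of all genes were. Among 23 Atf4 and unfolded protein response genes Shmt2 and Phgdh, enzymes of serine and one-carbon metabolism, fell by 0.98 and 0.71 on the log2 scale and the cystine carrier Slc7a11 rose by 1.02, a call it lost with the block (limma adjusted p = 0.0470 without and 0.0514 with it). None of the 3 was called by limma-trend after removal of the trends without the block. Bmpr2 and Bmpr1a, receptors for bone morphogenetic proteins, were the 2 of 19 TGF-beta pathway genes that rose, at log2 fold changes of 0.88 and 0.72. Bmpr2 lay at 309 to 352 CPM against 143 to 207 CPM. Both had smaller values without the trends, 0.29 and 0.24, and neither was then called without the block. Of 70 ribosomal protein genes 0 were called by either fit, with 24 lower at an unadjusted p under 0.05 and a median of -0.38, which became -0.09 after removal of the trends. The median as fitted was -0.21 without VEH_scramble replicate 3 and -0.58 without VEH_scramble replicate 2, and 16 were called lower without VEH_scramble replicate 1. No gene passed by either fit among 26 of glycolysis and hypoxia (8 at an unadjusted p under 0.05, median -0.22), 25 of cholesterol and fatty acid synthesis (2, median 0.12) and 14 targets of p53 (2, median -0.08).

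The replicate block raised the counts of several lists, where 4.91% of all genes were called higher with it and 3.13% lower. S phase genes called lower went from 3 to 7, glycolysis and hypoxia genes from 0 to 4 of 26 and ribosomal protein genes from 0 to 5 of 70. Ldha was among the glycolysis genes (limma adjusted p = 0.0549 without and 0.0339 with the block). Histone genes called lower went from 30 to 35 of 41, and microRNA processing genes called higher from 3 to 5 of 28. Nuclear noncoding RNAs went from 1 to 2 higher and from 2 to 5 lower. Atf4 and unfolded protein response genes went from 1 to 2 higher and from 2 to 3 lower. Mitotic genes called lower went from 6 to 10, with 1 higher. Coiled-coil genes called higher went from 6 to 14, Zfp genes from 7 to 20 and genes that sense foreign RNA from 0 to 4 of 15. Of the interferon-stimulated genes 2 were higher and 1 lower with the block, and of the genes from Toll-like receptors to NF-kB, of the microglial genes and of the lipid synthesis genes 2 each were higher. With the trends removed as well, where 1.74% of all genes were called higher and 1.53% lower, the counts were 7 S phase and 9 mitotic genes lower, 1 each of glycolysis and ribosomal protein genes lower, 1 gene of RNA sensing higher and 2 microglial genes higher. Of the phagosome and lysosome list 0 were called with the block and 2 were higher with the trends removed besides.

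The same mimic was compared with scramble in cells given LPS at 10 ng/ml for 24 h, in 8 other libraries that share no sample with the vehicle comparison. There 290 of 12505 genes were called (2.32%), 96 higher (0.768%) and 194 lower (1.55%), and 1336 (10.7%) with the replicate number as a block, since same-numbered LPS libraries deviated together. Of the genes that rose under vehicle 142 were tested under LPS, and 137 were above 0 there with a median of 0.34. Of those that fell 109 were tested, and 107 were below 0 with a median of -0.62. For comparison, 65.2% of all 11313 genes tested in both had the same sign. In both conditions 58 genes were called, 35 of them lower in both, and none in opposite directions. These are 23.1% of the vehicle calls and 21.4% of the LPS calls among genes tested in both.

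The share of histone genes was lower with the mimic under LPS as well. It was 0.442% ± 0.0726 in LPS_miR-146a and 0.831% ± 0.0820 in LPS_scramble (SD, n = 4 each, two-sided exact permutation p = 0.0286, the smallest possible), and 36 of 56 tested histone genes were called lower. Of the 52 S phase genes 28 fell under LPS, with a median of -0.85, against 3 and -0.53 under vehicle. Of 42 mitotic genes 16 fell under LPS, with a median of -0.65. The log2 fold changes of Mcm6 were -0.84 under vehicle and -1.27 under LPS, and those of Mybl2 -1.18 and -0.97, all called. Klf2 rose in both, by 1.11 and 1.32. The median of the long coiled-coil genes was -0.11 under LPS, against 0.52 under vehicle. Gcc2, for example, had a log2 fold change of 0.08 under LPS. The GC and length trends were also weaker under LPS, with Spearman correlations of -0.0558 and 0.216 across 11270 genes.

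Under LPS, Irak1 and Traf6 stood at -0.32 and -0.49 on the log2 scale, and neither was called without the block (limma adjusted p = 0.158 and 0.283). With the block both were (limma adjusted p = 0.0407 and 0.0157). Irak2 and Notch1 were called under LPS without it, at -0.53 and -0.56. The interaction asked directly whether the effect of the mimic differed between LPS and vehicle. Of 12127 genes 0 passed by limma voom and 0 by limma-trend, with 1356 and 1414 at an unadjusted p under 0.05. With the block it was again 0, with 2087 at that limit. So neither the coiled-coil genes nor the S phase genes were shown to respond differently in the 2 conditions. Gcc2 had an unadjusted interaction p of 0.000558, which did not pass over all genes.

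**Figure D5:**
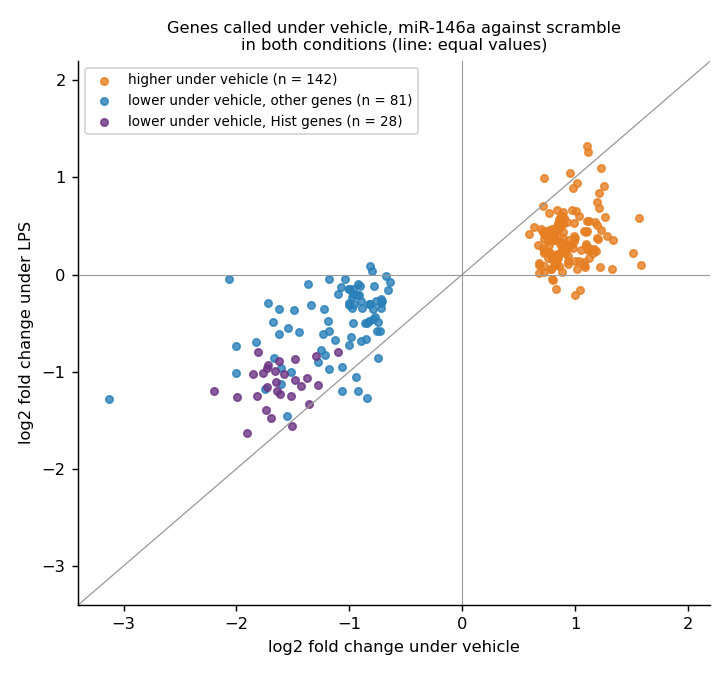
Log2 fold change of miR-146a against scramble under vehicle (horizontal) and under LPS (vertical) for 251 genes called under vehicle and tested in both; the diagonal marks equal values. Nearly all lie in the quadrants of the same sign, the 28 Hist genes stay below 0 on both axes, and most of the 142 genes that rose lie under the diagonal.

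Beside the other mimics under vehicle, which share the scramble libraries, Irak1 was lowest with miR-146a: it lay at 89.2 to 101 CPM there, at 143 to 178 CPM with miR-29a and at 116 to 175 CPM with miR-7a. Traf6 lay at 46.0 to 53.9, 60.0 to 75.3 and 66.1 to 74.7 CPM in the same order. Mybl2 lay at 22.7 to 31.3, 37.8 to 66.1 and 43.6 to 82.1 CPM, and Mcm6 at 66.2 to 99.3, 107 to 133 and 140 to 203 CPM. In these 4 genes no library of either other mimic reached down to the miR-146a values. Some of those libraries stand apart, since structural RNA genes took 50.6% to 51.6% of the counts in VEH_miR-7a replicates 2 to 4 and 24.4% in VEH_miR-29a replicate 2. H2afx was different, at 39.4 to 53.3 CPM with miR-146a, 18.9 to 81.5 CPM with miR-29a and 45.3 to 309 CPM with miR-7a, so that all 3 mimics overlapped. Without the 4 libraries that stand apart it lay at 70.04 to 81.5 CPM with miR-29a and at 178 CPM in the remaining miR-7a library, above the miR-146a values. Klf2, at 12.4 to 31.9 CPM with miR-29a, or 15.4 to 31.9 CPM without replicate 2, also reached into the miR-146a range. The histone share was 0.450%, 0.503% and 0.421% in VEH_miR-29a replicates 1, 3 and 4, below every scramble library (0.653% to 1.03%) and above every miR-146a library (0.283% to 0.375%), and 1.02% in replicate 2. With miR-7a it was 0.853% to 1.41%. A histone share below all scramble libraries was therefore also present in 3 of 4 miR-29a libraries. These values were set side by side and not tested.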

How the data were processed

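Total RNA libraries were made by the authors after depletion of ribosomal RNA, and reads were quantified per gene on GRCm38 with the nf-core rnaseq workflow, per the study's methods. The deposited table, described by the authors as counts, holds other values: estimated counts printed without their decimal marks. A model restored the marks from the size, the last digits and the level of the gene in related libraries. Of 590874 values above 0, 28.5% were given lost decimals and 1.28% stayed uncertain (posterior under 0.9), and 585 genes with such a value in the 8 libraries were left out. Genes were kept by the filterByExpr rule (minimum count 10, minimum total 15), scaled by TMM factors and tested with limma voom 3.58.1 in R 4.3.3, with Benjamini-Hochberg adjustment and no covariates. The authors state limma/edgeR for pairs of conditions. CPM values are counts per 1000000 of the TMM-scaled library size. Trends with GC content and length of the longest transcript were removed per library by splines, followed by limma-trend on log2 CPM with a prior count of 2. Of 45706 genes, 45143 matched GENCODE vM21. Column-to-sample matches used names alone, and no libraries held identical values (0 pairs). In simulated data of this comparison (11998 genes), 96.8% of 124 genes changed at least 2-fold were called, 47.1% of smaller changes and 6 unchanged genes. The simulated libraries held no trend with GC content or length and no replicate effect. These figures therefore do not give the share of real changes called here. Same-numbered LPS libraries deviated together (correlations of 0.184 to 0.568).

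Named genes were, by rule, the 12 largest rises and 12 largest falls among called protein-coding genes outside the Hist family that moved alike in 4 of 4 same-numbered pairs, the 4 most abundant Hist genes, the 10 smallest p values among genes called before and after trend removal, the 6 largest falls with a seed site, the reported targets and up to 4 members of each list. Some genes that the rule names are not reported here. Members and lists were chosen with earlier results of these data known, as was the lower level of seed-site genes, so none of these is independent support. P-values measure the spread between these libraries. The SE and SD values given here also rest on the spread between libraries. Floors cover counting error only. Alternatives were other scalings, filters, restorations, weights and sample sets, the replicate block and leaving out each library.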

Additional observations from a re-analysis of the deposited data

Results flagged for a closer look

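Dixon's test was run on 202 groups of 4 libraries, for the named genes and for library totals, shares and slopes. In 14, all for named genes, the gap from 1 library to the nearest exceeded the critical share of 0.829 of the group's range. Chance flags about 1 in 20 groups. Scramble replicate 1 stood high for Ms4a14 (gap 0.9003 of the range, 12.96 CPM against 4.66 to 5.49) and Ifit2 (0.893), and low for Rmrp (0.870, 2971 CPM against 8552 to 9387). Scramble replicate 2, the library rich in Gm26917, stood high for Them6 (0.862), Cdc20 (0.887) and Racgap1 (0.838), and low for Lamp2 (0.8425). Scramble replicate 4 stood high for Ago3 (0.853) and Ptgs2 (0.910), and low for Fam212a (0.845, 9.10 CPM against 10.1 to 10.3). Among the miR-146a libraries, replicate 1 stood high for Zfp593 (0.945), replicate 2 for Hist3h2a (0.9365, 16.6 CPM against 7.90 to 8.45) and Ptgs2 (0.873), and replicate 4 for Irak2 (0.847, 81.9 CPM against 64.0 to 66.7).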

How the results depend on the processing

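The count of 258 genes under vehicle was 17 with GC and length trends removed, 380 with these removed and the replicate block, 422 with no filter on low counts, 937 with a replicate block, 3011 with sample quality weights, 1091 with the spread taken from all libraries and 21 on values as deposited. Leaving out a library gave 0 to 1245: for miR-146a replicates 1 to 4 it was 14, 27, 0 and 71, and for scramble replicates 1 to 4 1245, 60, 14 and 13. Under LPS 290 genes became 131 by limma-trend, 1336 with the replicate block, 1371 with the block and trends removed, 572 with quality weights, 31 as deposited and 19 to 260 without a library. The interaction count of 0 became 2 with the block and trends removed, 190 with quality weights, 13 as deposited and 0 to 80 without a library. The length slope difference did not pass with genes of at least 30 counts (0.159, exact permutation p = 0.0857) or with protein-coding genes alone (0.145, p = 0.2). With the replicate block it was 0.161 with the same sign in 4 of 4 pairs (exact p = 0.125, the smallest that 4 pairs allow), and without a library 0.109 to 0.201 (exact p = 0.0571, the smallest possible). The histone share difference was -0.494 points with the replicate block (exact p = 0.125, again the smallest possible) and -0.554 to -0.428 without a library (exact p = 0.0571, the smallest possible). The cause of these shifts was not tested.

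Same-numbered vehicle libraries correlated at 0.387, 0.076, 0.184 and 0.262, and not every library correlated best with its own number, so the block was kept as an alternative. Total-count and median-of-ratios scaling moved the median gene by 0.04 and -0.03 (log2). Values as deposited turned the sign of Zfp935 (-1.17), Gcc2 (-0.62), Nabp1 (-1.67), Lcorl (-1.68), Ccdc88a (-4.76), Ago3 (-0.43), Traf4 (0.72), Mrpl30 (1.43), Mybl2 (0.14), Cdc20 (1.44), Hist1h1e (0.022), Traf6 (1.49), Irak2 (2.48), Trem2 (1.36), Akap6 (0.907), Tubb2a (-0.505) and Ldha (0.32), since the lost marks inflate single values. Elavl1 ran from -0.47 to 0.10 without a library, and was above 0 without VEH_miR-146a replicate 2. Of 1984 values of 95 named genes under the alternatives, 18 turned sign, and 527 of the 64 called genes' values no longer passed.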
